A study of Mus musculus with 3 samples.

Results

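The Sprouty, Spred and Sef genes of the mouse are 8 genes for inhibitors of receptor tyrosine kinase signalling: Spry1, Spry2, Spry3 and Spry4, Spred1, Spred2 and Spred3, and Il17rd, which encodes Sef. They were chosen by name, and all 8 had a probe set of their own among the 19938 genes measured. The cells came from the ureteric duct of CD-1 mice, taken on day 10.5 post coitum, which is Theiler stage 18; their sex is labelled unknown. Every embryo carried the transgene Tg(Hoxb7-EGFP)33Cos, in which the Hoxb7 promoter drives green fluorescent protein in the nephric duct and the structures it forms. Each of the 3 samples came from 1 duct, which was cut out, taken apart with trypsin and passed through a fluorescence sorter. The RNA went through 1 round of amplification, and each sample was read on 1 array. There was no second group, so the question open to test was which of these genes lay above the background of the arrays. Separate embryos are not stated in the labels, so each p-value measures no more than the spread among these 3 samples, and that spread may be technical.

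When a growth factor binds its receptor kinase, the signal passes through Ras and the Raf, MEK and ERK kinases to the nucleus. Sprouty and Spred proteins act on this route from inside the cell and Sef acts from the membrane, and several of their genes are switched on by the signal they then dampen. In the duct the receptor kinase Ret answers to GDNF from the surrounding mesenchyme, and the ureteric bud grows out where that signal is strongest. Mice without Spry1 are known for extra ureteric buds.

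Of the 8 genes, 7 were above background, against 56.2% of all genes. Spred2, Il17rd and Spred1 lay 2.26 to 3.19 log2 units above the cutoff. Spry2, Spred3 and Spry1 lay 0.81 to 0.86 units above it, Spry4 passed by 0.07 units, and Spry3 lay below it. Values are log2 signals as the authors deposited them, and a mean ± SD is over n = 3 arrays. The cutoff of an array is the 95th percentile of the 1212 probe sets that read olfactory or vomeronasal receptors, genes of sensory neurons, and was 5.69, 5.73 and 5.70 on arrays 1, 2 and 3. A gene passed when limma's one-sided test over all single-gene probe sets gave a Benjamini-Hochberg adjusted p under 0.05. The 8 genes had a median of 6.55, and the median of all genes was 6.04. Probe sets differ in affinity, so the genes are not ranked against each other by transcript amount.

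The mean of the 8 genes was 7.01, 7.05 and 7.07 on arrays 1, 2 and 3. Duct markers checked the tissue: all 14 measured ones passed, among them Lhx1 and Pax8. The highest was the calcium-binding protein gene Calb1 at 11.71 ± 0.03. Endothelial markers were present as well, with 13 of 14 above background and means of 7.78, 7.13 and 7.81 on arrays 1, 2 and 3, led by Emcn at 10.07 ± 0.69. Of these 14 genes, 13 were lowest on array 2. None of the 8 inhibitor genes was lowest there, but 4 of them held one value on all arrays, and only 2069 of all 19938 genes were lowest on array 2. Of other lists, 5 of 13 markers of metanephric mesenchyme, 4 of 12 of stroma and 2 of 6 of neural crest passed. So did 1 of 7 of macrophages and 1 of 7 of red cells. The share of all genes that passed, to be set beside each of these marker counts, was 56.2%. The highest of each list were Cited1 of the mesenchyme at 7.71 ± 0.17, Vim of the stroma at 9.71 ± 0.40, Erbb3 of the neural crest at 6.96 and Cx3cr1 of macrophages at 6.54, all of which passed. Below the cutoff on every array were 8 of the mesenchyme markers (among them Six2 at 5.07), 7 of the stroma (Foxd1 at 4.44), 4 of the neural crest, 5 of the macrophages (Ptprc at 4.16) and 2 of the red cells. The red cell list had a mean of 6.62 on array 1 and 5.24 on arrays 2 and 3. Its globin gene Hbb-y read 10.02, 5.31 and 5.45 and did not pass. The part that such cells have in the signals of the inhibitor genes was not tested, and in sorted tissue fewer cells with a transcript and less transcript per cell cannot be told apart.

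**Figure D1:**
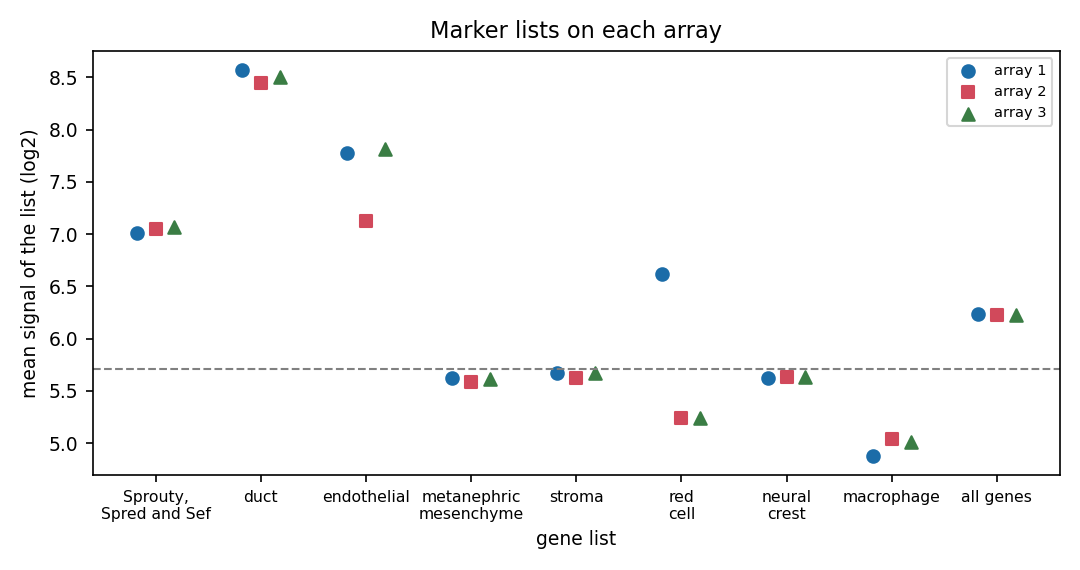
Mean deposited signal (log2, vertical axis) of the Sprouty, Spred and Sef genes, of marker lists and of all genes, with a point for each array; the dashed line is the mean cutoff of 5.71. The 8 inhibitor genes, 4 of which held one value on all arrays, lie between 7.01 and 7.07, and all genes between 6.23 and 6.24. The endothelial list is lower on array 2 (7.13) and the red cell list higher on array 1 (6.62).

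The promoters of these genes were searched for Ets sites, since Ets factors such as Etv4 and Etv5 act below Ret. Both factor genes passed the test in these arrays, and whether they act on the inhibitor genes was not tested. Etv5 read 7.23, 7.23 and 7.26, and Etv4 read 5.9, 5.87 and 5.9. Etv4 lay only 0.18 log2 units above the cutoff, and it was below the 99th percentile on every array. RefSeq promoter windows (build GRCm38.p6) were at hand for 6 of the 8 genes. In the 250 bases before the start, the core that Ets proteins read, GGAA on either strand, was found 7 times for Spred2, 4 times each for Spred1 and Il17rd, 3 times for Spry2, and 1 time each for Spry1 and Spred3. The core is short and 93.4% of 32851 promoter windows held it, with a median of 3 matches. As many as 7 were found in 3.8% of windows. The windows of Spred3 and Il17rd overlap the annotated gene, so they may not lie before every start of it, and their letters are not printed. The longer form CCGGAA was in 0 of the 6 windows and in 12% of all windows. The windows also differed in CpG dinucleotides, with 31 for Spred1, 23 each for Spry1 and Spry2, 12 for Spred2, 10 for Il17rd and 6 for Spred3, against a median of 6. The sequences of the 4 windows that lie outside the annotated gene, all of genes that passed the test, follow 5′ to 3′ with each GGAA or TTCC in capitals.
Spry1 (chr3:37639697-37639946, plus strand): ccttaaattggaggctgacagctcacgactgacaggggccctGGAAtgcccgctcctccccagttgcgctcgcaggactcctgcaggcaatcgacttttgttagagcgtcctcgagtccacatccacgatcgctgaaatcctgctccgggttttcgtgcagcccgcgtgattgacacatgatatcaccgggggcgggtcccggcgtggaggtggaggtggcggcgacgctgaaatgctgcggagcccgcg
Spry2 (chr14:105896820-105897069, minus strand): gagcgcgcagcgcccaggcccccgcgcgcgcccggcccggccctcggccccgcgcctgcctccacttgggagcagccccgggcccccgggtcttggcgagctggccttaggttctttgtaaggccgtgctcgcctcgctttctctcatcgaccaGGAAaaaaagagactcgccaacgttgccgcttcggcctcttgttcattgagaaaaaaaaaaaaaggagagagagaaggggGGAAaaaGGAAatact
Spred1 (chr2:117120821-117121070, plus strand): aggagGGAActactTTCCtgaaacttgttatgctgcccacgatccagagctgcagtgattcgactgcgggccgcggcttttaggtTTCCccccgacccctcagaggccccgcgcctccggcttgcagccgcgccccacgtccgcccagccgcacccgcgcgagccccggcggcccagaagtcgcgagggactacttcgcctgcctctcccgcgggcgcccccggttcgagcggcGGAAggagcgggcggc
Spred2 (chr11:19924192-19924441, plus strand): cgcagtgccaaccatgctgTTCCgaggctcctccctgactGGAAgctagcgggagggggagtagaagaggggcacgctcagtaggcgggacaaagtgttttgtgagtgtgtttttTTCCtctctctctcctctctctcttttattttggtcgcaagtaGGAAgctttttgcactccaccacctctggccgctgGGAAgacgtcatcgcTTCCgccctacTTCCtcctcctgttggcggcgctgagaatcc
A match describes the letters only, and whether any factor binds there was not measured.

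Of the 4 Sprouty genes, 3 were above background, against 56.2% of all genes. None of these 3 lay above the cutoff by as much as 1 log2 unit. Spry1, the Sprouty known to restrain Ret in the duct, read 6.47, 6.49 and 6.61 on arrays 1, 2 and 3, above the cutoff on each. Its mean of 6.52 ± 0.075 lay 0.81 log2 units above the cutoff (95% interval 0.69 to 0.93, limma, adjusted p = 0.000249). Spry2, which binds the ubiquitin ligase Cbl and the adaptor Grb2, read 6.45, 6.79 and 6.45. Array 2 was the high one, and the values of the other arrays were equal to the last digit deposited. Its distance from the cutoff was 0.86 (95% interval 0.60 to 1.11, limma, adjusted p = 0.00165), with an SD of 0.19 over the arrays. With the 99th percentile as cutoff, where 36.1% of all genes passed, Spry1 passed narrowly (0.14 units, limma, adjusted p = 0.0393). Spry2 did not pass there, although its mean lay further above that cutoff (0.19 units, limma, adjusted p = 0.168).

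Spry4, a Sprouty known as a feedback inhibitor of FGF signalling, held 5.78 on all 3 arrays. It lay 0.09, 0.05 and 0.07 log2 units above the cutoffs of arrays 1, 2 and 3 and below their 99th percentiles. The mean distance of 0.07 (95% interval 0.02 to 0.12, limma, adjusted p = 0.0154) passed, but this call is fragile. It was lost without array 1 (limma, adjusted p = 0.149), without array 3 (0.533), with the olfactory receptors alone as background, and with a larger spread assumed for genes of one value (0.314). Spry3, the least studied Sprouty in the mouse, held 5.33 on all 3 arrays and was the 1 gene of the 8 that did not pass. It lay 0.36 to 0.40 log2 units below the cutoffs (mean -0.38, 95% interval -0.43 to -0.33). For a gene with one value on all arrays, the interval reflects only the differences between the cutoffs and the moderation by limma, so it understates the error.

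**Figure D2:**
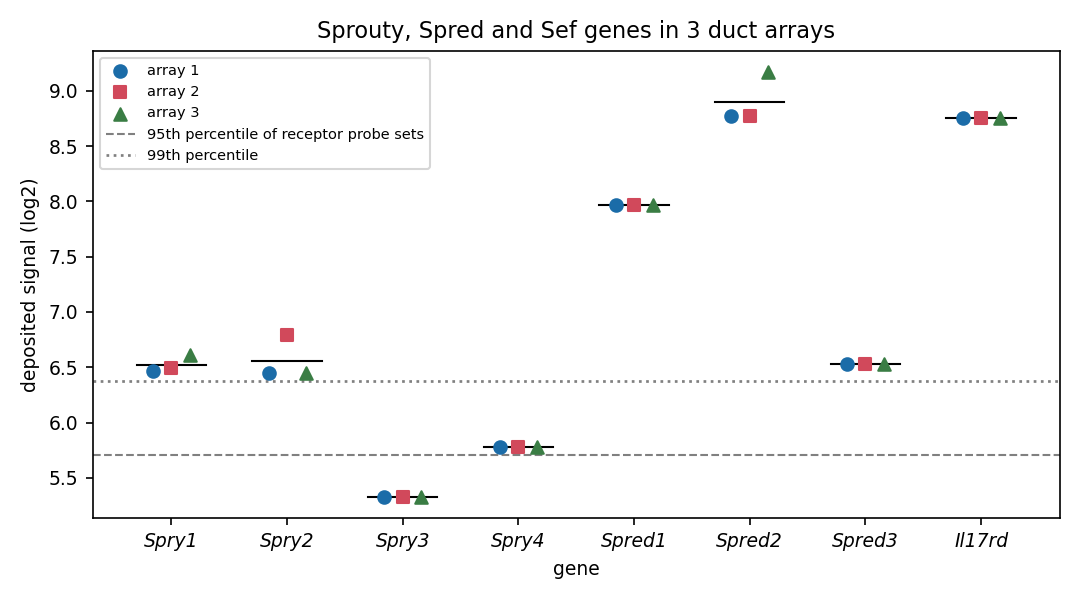
Deposited signal (log2, vertical axis) of each of the 8 genes, with a point for each array and a bar at the mean of the 3 arrays; the dashed and dotted lines are the mean 95th and 99th percentiles of receptor probe sets (5.71 and 6.38). Spred1, Spred2 and Il17rd lie well above both lines, Spry1, Spry2 and Spred3 just above the upper one, Spry4 between them and Spry3 below both.

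The 3 Spred genes were all above background, against 56.2% of all genes, and at the 99th percentile too, against 36.1%. Spred proteins bind neurofibromin, the Ras GTPase activator, and bring it to the membrane. Spred1, the gene mutated in human Legius syndrome, held 7.97 on all 3 arrays, 2.26 log2 units above the cutoff (95% interval 2.21 to 2.31, limma, adjusted p = 3.32e-06). Spred3, whose protein lacks a working Kit-binding domain, held 6.53 on all 3 arrays, 0.82 units above the cutoff (95% interval 0.78 to 0.87, limma, adjusted p = 2.27e-05). Its margin over the 99th percentile was only 0.12, 0.20 and 0.13 units on arrays 1, 2 and 3.

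Spred2 was read by 2 probe sets that differed in how they ran over the arrays. The one with the higher mean read 8.77, 8.77 and 9.17 on arrays 1, 2 and 3, and the other 9.03, 9.69 and 7.90. Array 3 was thus the high one for the first probe set and the low one for the second, although their means, 8.90 ± 0.23 and 8.87 ± 0.91, were close. The first probe set minus the second came to -0.26, -0.92 and 1.27 log2 units, with an SD of 1.12. Over the 999 genes with more than 1 probe set, the median of this SD was 0.07, and 1.4% of genes had one as large. Both probe sets lay above the 99th percentile on every array, by distances from the 95th percentile cutoff of 3.19 (95% interval 2.86 to 3.53, limma, adjusted p = 0.000103) and 3.17 (1.88 to 4.45, 0.00397). That Spred2 is above background therefore holds with either one, whereas its rise or fall from array to array does not. The first probe set alone stood in the counts above.

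**Figure D3:**
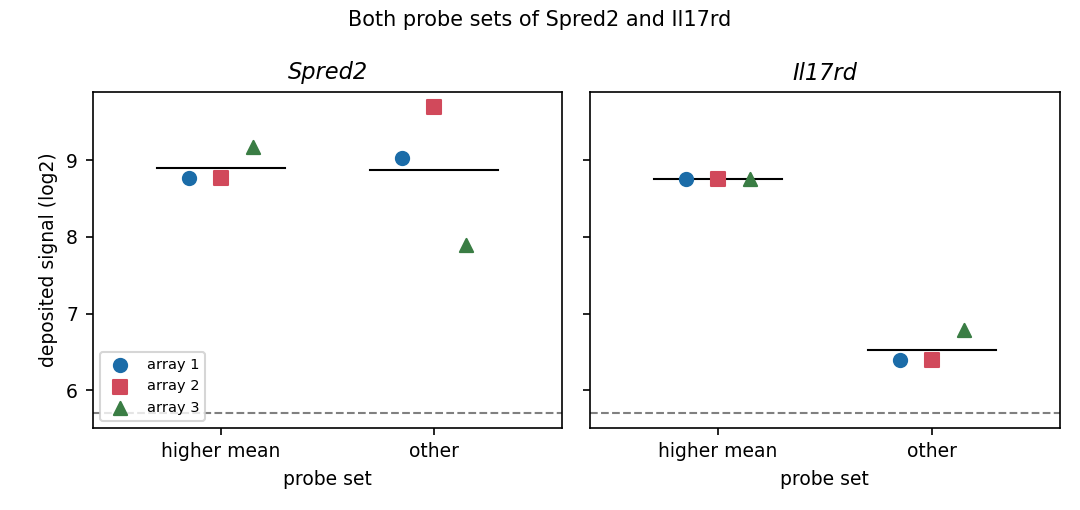
Deposited signal (log2, vertical axis) of both probe sets of Spred2 (left) and Il17rd (right), with a point for each array, a bar at the mean and a dashed line at the mean cutoff. For Spred2 the means are alike (8.90 and 8.87) but array 3 is high on one probe set and low on the other, and for Il17rd the probe sets differ in level (8.75 and 6.52).

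Il17rd encodes Sef, a membrane protein of the interleukin 17 receptor family that was named in zebrafish for its expression alongside FGF genes. Its brighter probe set read 8.75461 on arrays 1 and 2 and 8.74641 on array 3, a range of 0.008 log2 units. This lay 3.04 units above the cutoff (95% interval 3.0 to 3.09, limma, adjusted p = 2.31e-06). The other probe set read 6.39, 6.39 and 6.79, with array 3 the high one, and lay 0.81 units above the cutoff (95% interval 0.47 to 1.16, limma, adjusted p = 0.00446). The brighter minus the dimmer probe set averaged 2.23 log2 units, and 11.1% of the 999 genes with more than 1 probe set had a gap as wide. The dimmer one was above the 99th percentile on 2 of the 3 arrays. Of the other interleukin 17 receptor genes, 2 of 4 passed, against 56.2% of all genes, each with one value on all arrays. That count was 1 without array 1 or without array 3, and 0 to 4 over the alternatives. Il17rc read 6.65 and Il17re 5.82, while Il17rb at 5.53 and Il17ra at 5.47 did not pass. Il17ra encodes a subunit shared by several receptors of this family.

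The spread over arrays was small for most of the 8 genes, and it is not a full measure of error. Of the 8, 4 held one value on all 3 arrays (Spry3, Spry4, Spred1 and Spred3), as did 50.8% of all genes. A further 3 were tied on a pair of arrays (Spry2, Spred2 and Il17rd), and only Spry1 had a different value on each. Over the probe set of highest mean for each gene, Spred2 had the widest range, 0.395 log2 units, against a median of 0.200 for all genes with more than one value. Spry2 was next with 0.335, and Spry1 followed with 0.137. The other probe sets had wider ranges, 1.79 for Spred2 and 0.404 for Il17rd. Tied values understate the error between arrays, so the small intervals above describe these values and not the precision of the assay.

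Calls for Spred1, Spred2 and Il17rd were the firmest, that of Il17rd by its brighter probe set. They passed as reported and in each of the 15 alternatives tried for the background, the normalization, the probe set, the moderation and the arrays kept. Spry1 and Spred3 also passed in all of these but one, in which the cutoff was raised by 1 log2 unit. Spry2 missed in that one and at the 99th percentile. Each alternative with a higher cutoff read Il17rd by its brighter probe set. The dimmer one lay 0.81 units above the reported cutoff, less than the raise of 1 unit, so the call for Il17rd is firm for the brighter one only. With the cutoff raised by 1 unit, 3 of the 8 genes passed, against 28.4% of all genes, and at the 99th percentile 5 of 8 did, against 36.1%. Spry3 passed in 1 alternative, where all 8 genes did: its cutoff was the 30th percentile over the whole table, and 75.3% of all genes passed.

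The count of the 8 genes in the other alternatives stands here beside the share of all genes. It was 7 with the 90th percentile, against 65.4% of all genes, and 6 with the cutoff raised by 0.5, against 40.6%. With olfactory receptors alone as background it was 6, against 53.9%, and after quantile normalization 7, against 56.1%. With a wider spread given to tied values it was 6, against 54%. With the trended and robust moderation of limma it was 7, against 56.2%. With the lowest probe set of each gene it was 7, against 55.1%, and with the mean of its probe sets 7, against 55.8%. Without array 1, 2 or 3 it was 6, 7 and 6, against 55.2%, 54.9% and 52%. With dim probe sets removed, all 6 genes left passed, against 98.2% of the genes left, so that count says nothing about them.

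**Figure D4:**
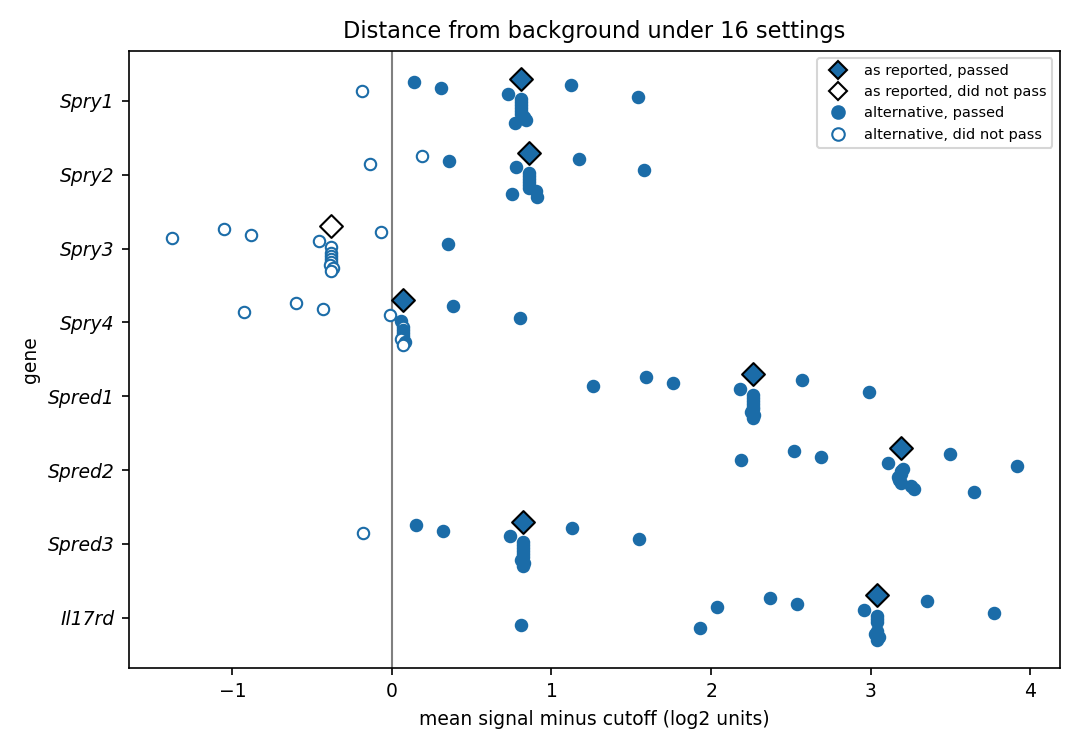
Mean signal minus background cutoff (log2 units, horizontal axis) of each of the 8 genes as reported (diamond) and in the alternatives (circles), filled where the gene passed limma's test at an adjusted p under 0.05. Spred1, Spred2 and Il17rd are filled throughout, Spry4 lies on either side of 0, and Spry3 is filled in 1 alternative only.

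The route on which these inhibitors act was set beside them through 5 gene lists, in which 71 of 85 measured genes (83.5%) passed, against 56.2% of all genes. Of the genes listed as receptors on this route, 13 of 16 passed, with a list median of 6.95 against 6.04 for all genes. The list is broad: it takes in Gfra1 and Fgfrl1, whose proteins have no kinase domain of their own, and both passed. Fgfr2, the epithelial FGF receptor, read 8.75, 8.75 and 8.73, and Met, the receptor of hepatocyte growth factor, 7.81 on all arrays. Kdr, the VEGF receptor of endothelial cells, read 8.70, 7.68 and 8.70, low on array 2, as were 13 of the 14 endothelial markers, of which Kdr is 1. Ret, named here for its role in the duct and not by the rule for named genes, read 7.21, 6.89 and 6.89, which was 1.29 log2 units above the cutoff (95% interval 1.00 to 1.58, limma, adjusted p = 0.000749). Egfr at 5.44, Pdgfrb at 5.20 ± 0.10 and Pdgfra at 5.88 ± 0.18 did not pass.

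Of the genes listed as partners or regulators of Sprouty, Spred or Sef, 25 of 27 passed, against 56.2% of all genes. The list median was 7.64. The highest means were those of Nedd4, a ubiquitin ligase of Sprouty, at 11.26, the GTPase gene Rhoa at 11.24 ± 0.17, and Nras, a Ras gene, at 10.63 ± 0.06. Cblc, the lowest of those that passed, read 6.16, 6.15 and 6.16. The 2 that did not pass varied between arrays: Mknk1, a kinase of Sprouty, read 6.42, 5.76 and 5.63, and Fntb, a farnesyltransferase subunit, 6.67, 5.70 and 6.91. Nf1, the neurofibromin gene, read 8.27, Cbl 7.85 ± 0.11 and the Sprouty-binding kinase gene Tesk1 7.49 ± 0.24. These 3 were named for their link to the inhibitors and not by the rule.

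Other negative regulators of receptor kinases passed in 19 of 24 cases, against 56.2% of all genes, with a list median of 6.27. At the 99th percentile 11 of them passed, against 36.1% of all genes. The ERK phosphatase genes Dusp9 and Dusp6 read 7.94 ± 0.13 and 7.84 ± 0.21, and Sulf2, a heparan sulfate sulfatase gene, 7.35 ± 0.005. Dusp10 at 4.93 ± 0.25, Sulf1 at 4.95, Dok1 at 5.48, Paqr3 at 5.61 and Lrig3 at 5.79 ± 0.27 did not pass. Known transcription targets of ERK signalling passed in 12 of 14 cases, against 56.2% of all genes, with a list median of 6.78. The cyclin gene Ccnd1 read 9.49, 9.64 and 9.90, Myc 8.20, 8.20 and 8.25, and the immediate early gene Egr1 8.19, 7.07 and 7.44, with array 1 the high one for Egr1. Etv1 at 4.89 and Fosl1 at 4.86 ± 0.20 did not pass. These counts describe the lists, and no list was tested against other genes.

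**Figure D5:**
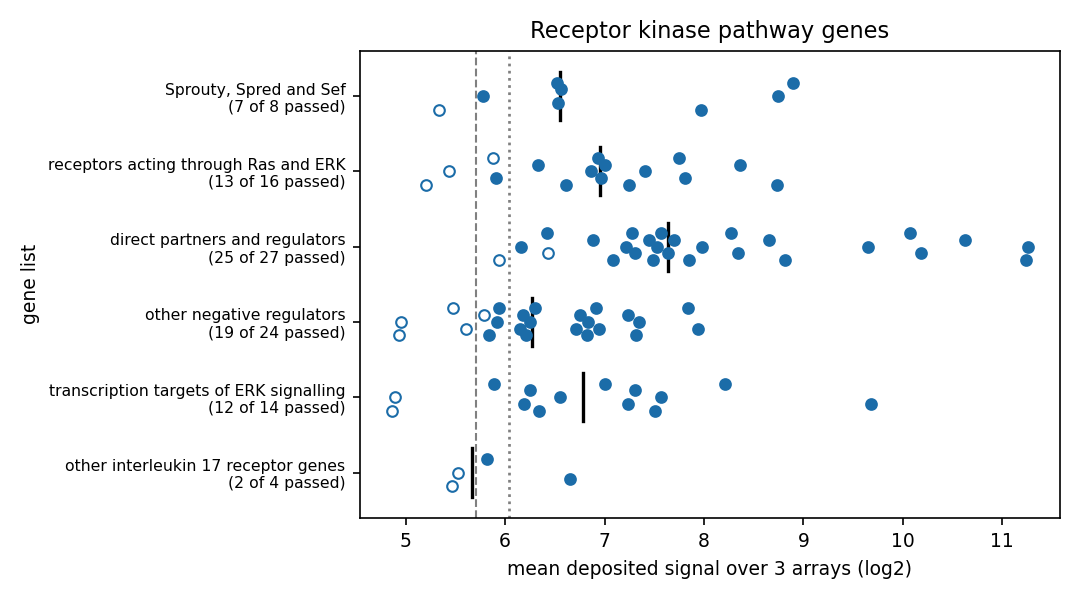
Mean deposited signal over the 3 arrays (log2, horizontal axis) of each gene in the Sprouty, Spred and Sef group and in 5 pathway lists, filled where the gene passed; the vertical bars are list medians, the dashed line the mean cutoff (5.71) and the dotted line the median of all genes (6.04). Of the 8 inhibitor genes 7 passed, and 25 of 27 partner genes did, against 56.2% of all genes.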

How the data were processed

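Transcript levels were read on Affymetrix mouse arrays in 3 samples of sorted ureteric duct cells. The deposited table holds 1 log2 signal for each of 35557 probe sets per array, summarised by the authors; the unit was read from its range and its medians near 5.9. The submitters' processing notes name Affymetrix Expression Console; algorithm, version and background steps: not given in the sources used here. Exactly equal values on all 3 arrays were held by 14102 probe sets, which understates error. Values were used as deposited.

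The platform annotation gave a single symbol to 21789 probe sets (19938 genes); probe sets with several symbols (1621) or unnamed (12147) were left out, and 21698 matched the RefSeq table of GRCm38.p6 by Entrez number. Each gene was represented by the probe set of highest mean. The distance of each log2 value from its array's cutoff was modelled as a mean by limma 3.58.1 (R 4.3.3). The one-sided p was adjusted over all 21789 probe sets. Precision is limited by the number of arrays.

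The 8 genes, the lists and the rule for named genes were chosen with earlier results of these data known. The rule takes the 8 genes with every probe set, the 3 highest and 2 lowest means of each pathway list, and of each marker list the highest and those below the cutoff, which are given mainly as counts. Ret, Etv4, Etv5, Nf1, Cbl, Tesk1, Lhx1, Pax8, Fntb and the further genes that did not pass were named after their values were seen. Alternatives covered the cutoff, its probe sets, quantile normalization, a filter on dim probe sets, the spread of tied values, the choice of probe set, the moderation and each array left out.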

Additional observations from a re-analysis of the deposited data

How the results depend on the processing

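The cutoff decides the weaker calls. Of the 8 Sprouty, Spred and Sef genes, 7 passed as reported, 3 after raising the cutoff 1 log2 unit, and 3 to 8 over the 15 alternatives, with 6 to 7 when an array was left out. The count of all 19938 genes was 11203 (56.2%) as reported, 7190 (36.1%) at the 99th percentile and 5653 (28.4%) with the cutoff raised by 1 unit. Over the alternatives the share of all genes tested was 28.4% to 98.2%, the latter with dim probe sets removed. When an array was left out it was 52% to 55.2%. For the 5 pathway lists together the count was 71 of 85 as reported and 45 with the raised cutoff. With that raise the distances of Spry1, Spry2, Spred3 and Spry4 turned negative (-0.19, -0.14, -0.18 and -0.93 log2 units). Spry4 was also negative at the 99th percentile (-0.60), with the cutoff raised by 0.5 (-0.43) and with olfactory receptors alone (-0.01), and it did not pass when tied values were given the spread of untied ones (0.07). Over the arrays left out, its distance was 0.06 to 0.08, and it did not pass without array 1 or array 3. Spry2 did not pass at the 99th percentile (0.19). Spry3 was positive over a cutoff at the whole table's 30th percentile (0.35). Raising or lowering a cutoff moves these distances by construction; the cause of the Spry4 losses without an array was not tested. Of Il17rd, the lowest probe set gave 0.81 and the mean of both 1.93, against 3.04 as reported. With probe sets over the median only, Spry3 and Spry4 were not tested. Without array 3 the moderation gave every gene the same spread. No paired analysis was possible because there is a single group.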

Other observations

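Many deposited values were held by more than 1 probe set, and 53.7% of all values in the table also occurred on another probe set. Spry2's value of 6.45257 on arrays 1 and 3 was also found on 77 other probe sets, some of them of 56 other named genes. Spry1's value on array 3, 6.60855, was found on 33 others, and Spry3's value of 5.32838 on 16. The value of Spred1, 7.96722, was found on 9 other probe sets, that of Spry4, 5.77797, on 2, and that of Spred3, 6.53056, on 1. Of the brighter probe set of Il17rd, 0 of the values occurred elsewhere, and the same held for the second probe set of Spred2, whose values differed on every array.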
